A study of Mus musculus with 17 samples.

Results

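The genes described here are 10 abundant or well-known secreted products of the retinal pigment epithelium (RPE): Ttr, Rbp4, Ptgds, Enpp2, Clu, Cst3, Timp3, Efemp1, Vegfa and Igfbp2. They were listed by name, as proteins that RPE cells are known to release, when earlier results of these data were already known. All 10 were found among the 22253 genes of the table. Their read counts, shares of the library and CPM (counts relative to the scaled library total) were followed across 17 libraries of hand-picked mouse RPE cells.

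The animals were Serpine3GFP/+ mice at 2 months. One of their Serpine3 alleles carries a GFP reporter inserted behind the start codon, and all 3 groups carry this allele, so that no library came from wild-type RPE. GFP+ libraries held fluorescent cells of the peripheral RPE (n = 6), ctrl periphery libraries held cells without fluorescence from the same region (n = 5), and ctrl center libraries held such cells from the central RPE (n = 6). Per the labels each library was a pool of 10 to 15 cells, and the animals are numbered here as mouse 1 to mouse 7. Mouse 1 stands for a pair of animal numbers given together. Mice 1, 2, 4, 5 and 7 gave a library of every group, whereas mouse 3 gave only a GFP+ library and mouse 6 only a ctrl center library. Libraries of one mouse share the animal but not the cells.

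The RPE is a single sheet of pigmented cells between the photoreceptors and the vessels of the choroid, and it secretes toward both sides. On the apical side it releases carrier proteins and chaperones into the space around the photoreceptor outer segments. On the basal side it maintains Bruch's membrane and the choroidal capillaries through matrix proteins, protease inhibitors and growth factors. Retinol reaches it from the blood bound to RBP4 and transthyretin, and is passed on through the visual cycle.

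Total counts ranged from 9896118 to 22467079 per library. The limit that a count of 0 leaves, 3 counts, covers counting error only. Relative to total counts without scaling, it lay between 0.134 and 0.303 CPM. On the scaled CPM given for the genes this limit differs by library and was not computed, so low genes were judged by their counts. Serpine3 had 107 to 576 counts in GFP+ libraries, 0 to 5 in ctrl periphery and 0 in ctrl center, as the labels have it. The RPE label was met by Rpe65, from 2993 to 11537 CPM, and by Rlbp1, from 2144 to 5655 CPM, while Best1, another marker of the RPE, did not exceed 3 counts in any library. Mitochondrial genes took 7.95% ± 5.70 (SD, n = 6) of counts in GFP+, 19.7% ± 6.98 (n = 5) in ctrl periphery and 29.1% ± 12.2 (n = 6) in ctrl center. The ctrl center library of mouse 5 stood apart, with 47.3% mitochondrial counts and 5392 genes at 10 counts or more, where the other libraries had 6430 to 10543. Photoreceptor markers summed to 1.80 to 35.9 CPM in GFP+, 11.3 to 38.7 in ctrl periphery and 16.2 to 129 in ctrl center, and Pde6a made up 73.8% of that sum. Rcvrn and Arr3, 2 of the 13 genes, were at or under 3 counts in every library. Markers of Mueller glia, 8 genes, summed to 2072 to 2862 CPM in GFP+. Their sum was 1531 to 3323 CPM in ctrl periphery and 1403 to 3554 in ctrl center. Car14 made up 73.6% of it, and Aqp4, Gfap and Abca8a were at or under 3 counts in every library. The part of photoreceptors and Mueller glia in the results was not tested. The mean summed share, the fits of Enpp2, Clu and Timp3 and the named correlations among the 10 genes are given with and without the ctrl center library of mouse 5. Other ctrl center values include it, apart from the ranges over left-out libraries.

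Together the 10 genes took 12.2% ± 1.40 (SD, n = 6) of all counts in GFP+, 10.5% ± 1.77 (n = 5) in ctrl periphery and 8.70% ± 3.79 (n = 6) in ctrl center. The sum ran from 9.80% to 14.2% in GFP+, with a median of 12.3%. The ctrl periphery libraries gave 11.02%, 10.9%, 12.9%, 8.34% and 9.15% for mice 1, 2, 4, 5 and 7. In ctrl center it ran from 3.62% to 12.6%, with a median of 9.28%. All 3 ranges overlapped, and the lowest values were the ctrl center libraries of mouse 5 (3.62%) and mouse 7 (4.85%), in which mitochondrial genes took 47.3% and 37.0% of counts. With mitochondrial genes left out of the total, the sums were 13.2% ± 1.37, 13.0% ± 1.39 and 11.8% ± 3.84. On that total the ctrl center libraries of mice 5 and 7 were still the lowest, at 6.87% and 7.70%. The next lowest was ctrl center mouse 1, at 11.4%. What lowered the sum in mice 5 and 7 was not tested. The mean of ctrl center was 9.71% of all counts without mouse 5. Since each library is a pool, fewer cells that use a gene and less RNA per cell cannot be told apart.

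**Figure D1:**
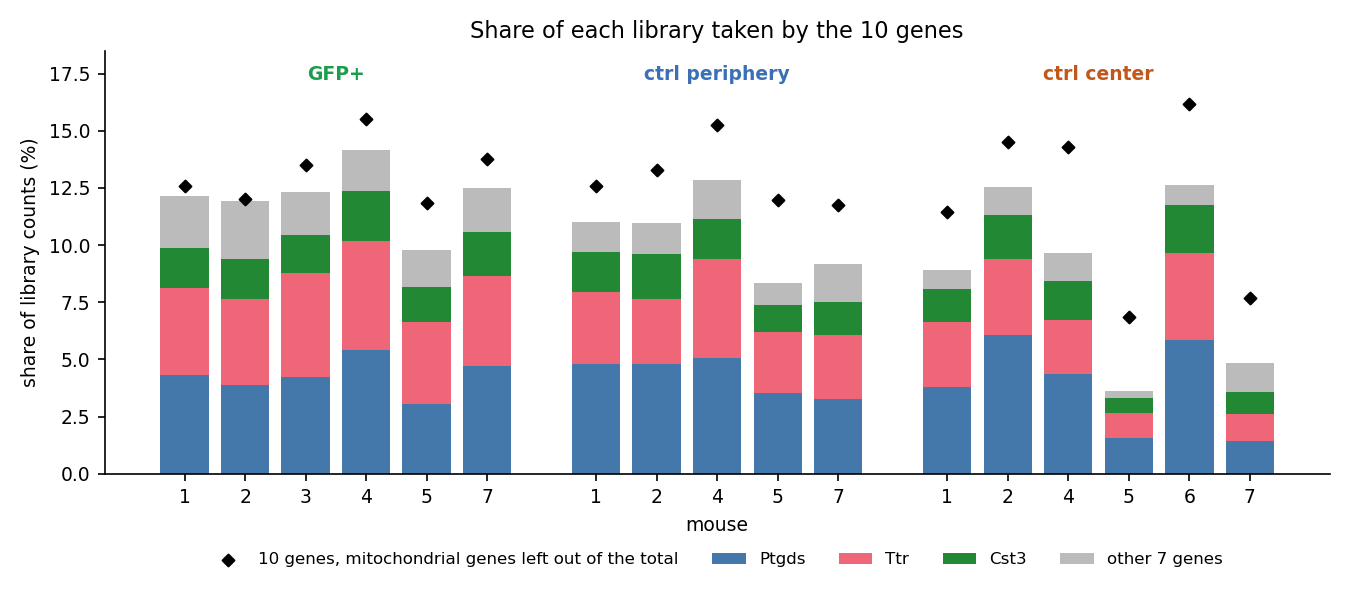
Share of all library counts taken by the 10 genes, in percent, with 1 bar per library ordered by group and mouse; colors separate Ptgds, Ttr, Cst3 and the sum of the other 7 genes, and diamonds give the sum when mitochondrial genes are left out of the total. The 6 GFP+ bars lie between 9.80% and 14.2%, and the ctrl center bars of mice 5 and 7 are the lowest at 3.62% and 4.85%.

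Ptgds, Ttr and Cst3 held between 74.1% and 92.9% of the counts of the 10 genes. Among 19417 nuclear genes ranked by mean share, Ptgds was at position 1, Ttr at 2, Cst3 at 6, Clu at 10, Timp3 at 14 and Enpp2 at 18. Vegfa was at position 295, Igfbp2 at 2264, Efemp1 at 8440 and Rbp4 at 9312. The label "abundant" therefore holds for 6 of the 10 genes in these pools, and for Efemp1 and Rbp4 it does not. The neighbors of Ptgds and Ttr in that order were Ddx23 at position 3, Trf, the iron carrier transferrin, at 4 and Rgr, an opsin of the RPE, at 5. In each library, Ptgds ranked between positions 1 and 12 among all genes and Ttr between 1 and 14.

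Levels between genes were compared per length of annotated exon, as counts per kilobase scaled like CPM. On that scale the order in GFP+ was Ttr (75228 ± 9429, SD, n = 6), Ptgds (56996 ± 11458), Cst3 (31402 ± 5157), Clu (5929 ± 2544), Enpp2 (1743 ± 272), Timp3 (1654 ± 473), Vegfa (157 ± 36.2), Igfbp2 (88.8 ± 76.6), Efemp1 (17.9 ± 19.0) and Rbp4 (2.65 ± 6.26). The GFP+ ranges were separate between Cst3 and Clu, between Clu and Enpp2, and between Timp3 and Vegfa. Those of Ttr and Ptgds, of Ptgds and Cst3, of Enpp2 and Timp3, and of the genes from Vegfa downward overlapped with their neighbors, and Enpp2 exceeded Timp3 in 3 of 6 libraries. Ctrl periphery had the same order, with Ttr above Ptgds in 3 of 5 libraries. In ctrl center Ptgds came before Ttr, in 4 of 6 libraries, and Rbp4 came before Efemp1. With the longest transcript in place of all exons, the ctrl periphery order took the ctrl center form, with 6 of 10 genes at the same position. Exons of Timp3 overlap Syn3 on the opposite strand, and those of Enpp2 overlap Gm26684, so their reads cannot be told apart where strand was not used in counting.

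**Figure D2:**
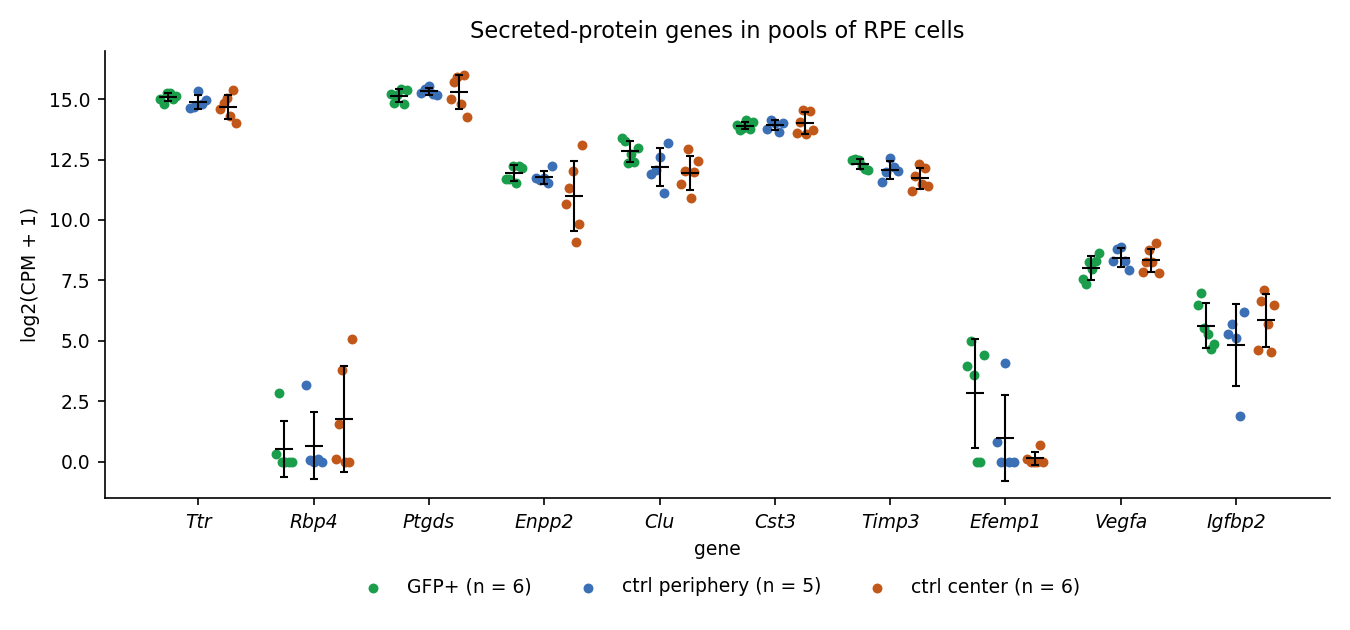
Level of each gene as log2(CPM + 1), with 1 point per library (GFP+ n = 6, ctrl periphery n = 5, ctrl center n = 6); the black line and bars give the mean and SD of a group. Ttr, Ptgds and Cst3 lie highest, with the widest spread of each in ctrl center, while Rbp4 and Efemp1 are near 0 in most libraries.

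The stretches ahead of the annotated starts are shown for the pair of genes whose levels were most alike (Ptgds and Cst3), for Timp3, whose ratio to Cst3 separated groups below, and for Efemp1, which was either present or near 0. RefSeq promoter entries on GRCm38.p6 were used for 7 of the 10 genes, and none was used for Ttr, Enpp2 or Clu. The stretches shown were taken from these entries and cut to bases outside annotated exons. Those of Cst3, Timp3 and Efemp1 lie ahead of the first exon of every annotated transcript, and that of Ptgds lies in an intron of a longer transcript. Capitals mark the GC box, here CCGCCC on the strand shown, in the stretch of Efemp1.
Ptgds, chr2:25469843-25469999, minus strand: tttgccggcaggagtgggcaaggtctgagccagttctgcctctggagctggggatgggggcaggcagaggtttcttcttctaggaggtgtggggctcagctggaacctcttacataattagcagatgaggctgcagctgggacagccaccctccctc
Cst3, chr2:148875693-148875762, minus strand: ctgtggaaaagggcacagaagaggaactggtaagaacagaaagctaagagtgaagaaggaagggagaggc
Timp3, chr10:86300162-86300371, plus strand: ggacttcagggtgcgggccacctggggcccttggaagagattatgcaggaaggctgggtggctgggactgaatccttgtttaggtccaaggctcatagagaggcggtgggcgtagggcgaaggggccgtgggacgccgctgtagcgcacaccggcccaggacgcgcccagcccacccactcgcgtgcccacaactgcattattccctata
Efemp1, chr11:28852955-28853203, plus strand: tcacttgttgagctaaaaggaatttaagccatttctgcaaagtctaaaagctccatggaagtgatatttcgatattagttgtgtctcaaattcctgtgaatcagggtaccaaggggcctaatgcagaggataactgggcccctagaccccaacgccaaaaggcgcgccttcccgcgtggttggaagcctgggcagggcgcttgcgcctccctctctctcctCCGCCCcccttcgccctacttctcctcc
In the 250 bases before each start, both strands were searched for the TATA box (TATAAA), the CCAAT box (CCAAT), the GC box (GGGCGG), an OTX site (TAATCC), the E boxes CACGTG and CATGTG, and the hypoxia response core (ACGTG), which lies within CACGTG. The window of Ptgds held none of them. Those of Cst3, Timp3 and Efemp1 held 1 GC box each and no other match, and 33% of 32536 windows of this length held a GC box. For Cst3 and Timp3 the match lies nearer to the start than the stretch shown and inside the annotated gene, for Timp3 in an exon. The window of Vegfa at its first exon held 2 GC boxes and a CCAAT box, a motif of 33.8% of windows. That of Igfbp2 at its first exon held 3 GC boxes and CACGTG, a motif of 6.04% of windows. The window ahead of the first exon of Rbp4 held a CCAAT box, and that of an inner start held TATAAA, a motif of 12.3% of windows, with 2 GC boxes and ACGTG. These matches are descriptions of letters and not of bound sites.

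None of the genes passed the test in any of the 3 comparisons between groups. The test was edgeR's quasi-likelihood test on all genes past its filter on low counts, and a gene was called when its log2 fold change passed 1 in size and its p, after Benjamini-Hochberg adjustment, was under 0.01. In GFP+ against ctrl center 8 of the 10 genes were tested and 0 called, where 0.0431% of 9286 genes were called. In GFP+ against ctrl periphery 9 were tested and 0 called, against 0.0396% of 10102 genes, and in ctrl periphery against ctrl center 8 were tested and 0 called, against 0% of 9535 genes. At an unadjusted p under 0.05 the counts of the 10 genes were 2, 0 and 0, where the shares of all tested genes were 5.8%, 5.58% and 2.7%. The alternative DESeq2 called 202, 67 and 29 genes in these comparisons, none of them among the 10. A replicate block by mouse, to which mice 3 and 6 add nothing, changed this: the called genes were 56 (1 higher and 55 lower), 0 and 0, again none of the 10. Each group enters 2 of the 3 comparisons, which are therefore not independent. The CPM ranges of the groups overlapped for all 10 genes in each comparison, where 1.13%, 1.29% and 0.755% of tested genes did not overlap. No gene of the 10 was higher in GFP+ in all 5 mice, either against ctrl center, where 7.52% of genes were, or against ctrl periphery, where 4.82% were.

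These abundant genes were measured with narrower error than most genes. The median half-width of the 95% interval was 0.58 on the log2 scale for the 8 tested genes in GFP+ against ctrl center, beside 2.24 over all 9286. Their median absolute log2 fold change was 0.31, beside 0.57 over all genes. In GFP+ against ctrl periphery the half-widths were 0.46 and 1.75, and in ctrl periphery against ctrl center 0.61 and 2.55.

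**Figure D3:**
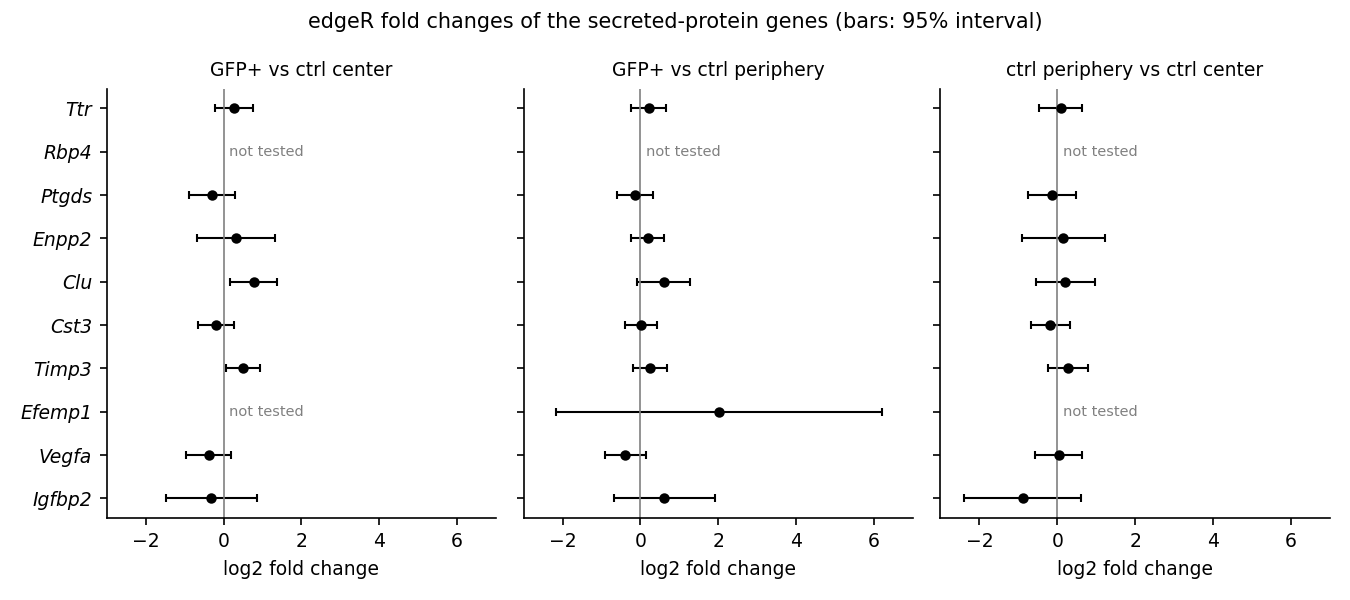
Log2 fold change of each gene in the 3 comparisons, fitted by edgeR, with bars for the 95% interval; genes removed by the filter on low counts are marked as not tested. The intervals of Clu and Timp3 in GFP+ against ctrl center lie above 0, from 0.16 to 1.38 and from 0.06 to 0.95 on the log2 scale, before adjustment for the number of genes.

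Of the carriers, Ttr (chr18:20665280-20674321, plus strand, GRCm38) encodes transthyretin, which transports thyroxine and holds the complex of retinol and RBP4. Its CPM in GFP+ ran from 28685 to 39247 with a median of 34296. In ctrl periphery it was 25508, 26332, 41016, 28414 and 31596 for mice 1, 2, 4, 5 and 7, and in ctrl center it ran from 16439 to 42373 with a median of 26910. The groups overlapped, with the narrowest range in GFP+ and both extremes in ctrl center. As a share of all counts Ttr took 4.07% ± 0.489, 3.16% ± 0.683 and 2.44% ± 1.11. The log2 fold change of GFP+ against ctrl center was 0.28 ± 0.23 (SE), a 95% interval of 0.862 to 1.70 in fold (edgeR, adjusted p = 1.00). It was 0.21 ± 0.21 against ctrl periphery and 0.09 ± 0.26 between the ctrl groups. Ttr was higher in GFP+ than in ctrl center in 4 of 5 mice.

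Rbp4 (chr19:38116629-38125281, minus strand), the carrier of retinol in blood, was near 0 in most libraries. Its counts in GFP+ were 6 for mouse 1, 131 for mouse 2 and 0 for the other four mice. In ctrl periphery they were 142, 1, 0, 1 and 0 for mice 1, 2, 4, 5 and 7, and in ctrl center 1, 36, 130, 0, 0 and 299 for mice 1, 2, 4, 5, 6 and 7. Libraries above 3 counts thus numbered 2 of 6, 1 of 5 and 3 of 6, and no mouse was above 3 counts in all its libraries. The filter on low counts removed Rbp4 in all 3 comparisons. Two-sided exact permutation tests of its mean CPM gave 1.08 against 8.03 in GFP+ and ctrl center (p = 0.260), 1.08 against 1.61 in GFP+ and ctrl periphery (p = 0.671), and 1.61 against 8.03 between the ctrl groups (p = 0.325). The smallest p that GFP+ against ctrl center allows, with 6 libraries in each, is 0.00216. It is larger in the comparisons with the 5 libraries of ctrl periphery. In all, 6 such tests were run, 3 for Rbp4 and 3 for Efemp1.

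Around these carriers, a list of 15 genes for the transport of retinol and thyroid hormone had 9 genes tested in each comparison and 0 called. Lrat, which esterifies retinol, was at 1054 ± 285 CPM in GFP+ (n = 6), 1669 ± 194 in ctrl periphery (n = 5) and 1757 ± 518 in ctrl center (n = 6). Its log2 fold changes in GFP+ were −0.79 ± 0.23 against ctrl center (edgeR, adjusted p = 0.174) and −0.65 ± 0.20 against ctrl periphery (edgeR, adjusted p = 0.595). Rlbp1, the carrier of retinaldehyde, was at 3382 ± 492, 3135 ± 941 and 3372 ± 1194 CPM. At an unadjusted p under 0.05 were only Lrat, lower in GFP+ in both of its comparisons, and the thyroid hormone receptor gene Thrb against ctrl periphery.

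Of the secreted enzymes, Ptgds (chr2:25466709-25470046, minus strand) encodes a prostaglandin D synthase that also carries small lipophilic molecules. Its CPM in GFP+ ran from 28100 to 43999 with a median of 37136. Values in ctrl periphery were 38956, 43850, 47671, 37633 and 37070 for mice 1, 2, 4, 5 and 7, and in ctrl center it ran from 19455 to 64949 with a median of 43023. The ctrl center libraries thus spread 3.34-fold from lowest to highest, beside 1.57-fold in GFP+ and 1.29-fold in ctrl periphery. The log2 fold changes were −0.29 ± 0.28 for GFP+ against ctrl center, −0.15 ± 0.22 for GFP+ against ctrl periphery and −0.13 ± 0.29 between the ctrl groups (edgeR, adjusted p = 1.00 in each). Scaled by total counts alone, the first and the last became 0.16 and 0.16, so that no direction is given. That scaling moved the median log2 fold change of all genes to 0.48, 0.16 and 0.32 in the 3 comparisons. Of the 11 genes for synthesis and receptors of prostaglandin D, 5 were tested in each comparison and 0 called. The prostaglandin E synthase genes Ptges, Ptges2 and Ptges3 lay at 97.5 ± 43.4, 92.6 ± 30.0 and 110 ± 21.4 CPM in GFP+ (n = 6).

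Enpp2 (chr15:54838901-54952892, minus strand) encodes autotaxin, which makes lysophosphatidic acid outside the cell. Its CPM ran from 2923 to 4877 in GFP+, with a median of 3932. Ctrl periphery values were 3376, 3190, 3393, 2949 and 4805 for mice 1, 2, 4, 5 and 7, and in ctrl center it ran from 551 to 8700 with a median of 2077. The ctrl center group therefore held both the lowest library, of mouse 5, and the highest, of mouse 7. GFP+ against ctrl center gave a log2 fold change of 0.31 ± 0.48, with an interval of 0.620 to 2.49 in fold (edgeR, adjusted p = 1.00). This value was 0.09 ± 0.43 without ctrl center mouse 5 and 1.00 ± 0.38 without ctrl center mouse 7 (edgeR, adjusted p = 0.534). Of 17 genes for lysophospholipid signalling, 6, 9 and 8 were tested in the 3 comparisons and 0 called. The related genes Enpp5 and Enpp4 were at 254 ± 124 and 30.1 ± 5.65 CPM in GFP+, and the receptor gene Lpar6 was at 16.5 ± 17.6 CPM (n = 6).

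Clu (chr14:65968483-65981547, plus strand) encodes clusterin, an extracellular chaperone. Its CPM ran from 5208 to 10635 in GFP+, with a median of 7412. The ctrl periphery libraries gave 3872, 4347, 6225, 2195 and 9383 for mice 1, 2, 4, 5 and 7, and in ctrl center it ran from 1923 to 7767 with a median of 4085. The ranges overlapped, and 3 of 6 GFP+ libraries lay above every ctrl center library. Clu had the largest fitted difference of the 8 genes tested in GFP+ against ctrl center, a log2 fold change of 0.77 ± 0.29 and an interval of 1.12 to 2.61 in fold, which did not pass adjustment over all genes (edgeR, adjusted p = 0.534). Over its alternatives the adjusted p ranged from 0.144 to 0.999. It was higher in GFP+ in 4 of 5 mice. The value was 0.63 ± 0.28 without ctrl center mouse 5 (edgeR, adjusted p = 0.816). GFP+ against ctrl periphery gave 0.60 ± 0.32 and the ctrl groups 0.20 ± 0.36, with adjusted p of 0.939 and 1.00 (edgeR).

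A list of 9 genes for clusterin, its receptors and other extracellular chaperones had 7 tested in each comparison and 0 called. Apoe, the main lipid carrier of the outer retina, was at 3432 ± 497, 4408 ± 1044 and 4577 ± 2158 CPM in GFP+, ctrl periphery and ctrl center. A2m, a broad protease trap, was at 1270 ± 1620, 627 ± 856 and 277 ± 265 CPM, and its log2 fold change of 2.13 ± 0.83 in GFP+ against ctrl center had a wide error (edgeR, adjusted p = 0.575). Lrp2, a receptor that takes up clusterin, was at 189 ± 78.1, 131 ± 52.0 and 113 ± 60.7 CPM.

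Cst3 (chr2:148871722-148875692, minus strand) encodes cystatin C, an inhibitor of cysteine cathepsins, and had the smallest spread of the abundant genes in GFP+. Its CPM ran from 13677 to 17789 in GFP+ with a median of 14905. In ctrl periphery it was 14077, 18174, 16716, 12650 and 16547 for mice 1, 2, 4, 5 and 7, and in ctrl center it ran from 12119 to 24244 with a median of 15224. The 3 ranges lay largely on top of each other. The SD of log2(CPM + 1) in GFP+ was 0.16 for Cst3 and 0.17 for Ttr, and 3.79% and 5.36% of the 1268 genes with a mean of at least 100 CPM had a smaller SD. The log2 fold changes were −0.20 ± 0.22, 0.01 ± 0.19 and −0.18 ± 0.24 in the 3 comparisons (edgeR, adjusted p = 1.00 in each), and the first and the last turned to 0.30 and 0.15 when scaled by total counts alone. For GFP+ against ctrl periphery the interval was 0.756 to 1.34 in fold.

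Of 17 genes for cystatins and cathepsins 12 were tested and 0 called in each comparison. For GFP+ against ctrl center 11 of the 12 log2 fold changes were above 0, with a median of 0.38 beside 0.00 over all genes. Against ctrl periphery 10 of 12 were above 0, with a median of 0.43 beside 0.01, and between the ctrl groups 6 of 12, with a median of −0.01. Ctsd, the main aspartic protease of the lysosome, was at 4402 ± 2346, 2262 ± 804 and 1956 ± 717 CPM in GFP+, ctrl periphery and ctrl center, a log2 fold change of 1.13 ± 0.35 against ctrl center (edgeR, adjusted p = 0.263) and of 1.00 ± 0.35 against ctrl periphery (edgeR, adjusted p = 0.685). Ctsb, a cysteine protease, was at 1176 ± 317, 809 ± 329 and 736 ± 314 CPM. Ctsl, another, was at 374 ± 81.4, 265 ± 101 and 286 ± 161 CPM.

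Timp3 (chr10:86300372-86349506, plus strand) encodes a metalloproteinase inhibitor that is held in Bruch's membrane. Its CPM ran from 4266 to 5888 in GFP+ with a median of 5225. Values in ctrl periphery were 3071, 4022, 6015, 4735 and 4111 for mice 1, 2, 4, 5 and 7, and in ctrl center it ran from 2348 to 5058 with a median of 3215. In GFP+ 3 of 6 libraries lay above every ctrl center library. The log2 fold change of GFP+ against ctrl center was 0.50 ± 0.21, with an interval of 1.04 to 1.93 in fold, which did not pass adjustment (edgeR, adjusted p = 0.712). Its adjusted p ranged from 0.184 to 0.999 over the alternatives, and the value was 0.48 ± 0.22 without ctrl center mouse 5. It was 0.25 ± 0.21 against ctrl periphery and 0.27 ± 0.25 between the ctrl groups, where Timp3 was higher in ctrl periphery in 5 of 5 mice, as were Vegfa and 6.63% of all genes.

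As shares of all counts rather than scaled CPM, Clu and Timp3 did not overlap between GFP+ and ctrl center. Clu took 0.587% to 1.28% of counts in GFP+ and 0.105% to 0.544% in ctrl center. Timp3 took 0.473% to 0.770% in GFP+ and 0.156% to 0.407% in ctrl center. Of the 9286 tested genes, 1.95% did not overlap on this scale, 170 of them higher and 11 lower in GFP+. Against ctrl periphery 0 of 9 genes were separate on this scale, where 1.35% of genes were, and between the ctrl groups 0 of 8, where 0.923% were. Mitochondrial counts took 0.710% to 17.17% in GFP+ and 13.7% to 47.3% in ctrl center, and their part in this result was not tested. With mitochondrial genes left out of the total, 0 of the 8 genes were separate, where 1.24% of all genes were, and likewise 0 in the other comparisons, where 1.23% and 0.746% were.

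Of 19 genes for TIMPs and their metalloproteinases 5, 8 and 7 were tested and 0 called. Of the fitted log2 fold changes, 5 of 5 were above 0 in GFP+ against ctrl center, with a median of 0.89 beside 0.00 over all genes. Against ctrl periphery 5 of 8 were above 0 (median 0.27, beside 0.01 over all genes), and between the ctrl groups 6 of 7 (median 0.57). Timp2, another inhibitor of the family, was at 197 ± 47.1, 157 ± 54.2 and 101 ± 32.6 CPM in GFP+, ctrl periphery and ctrl center, a log2 fold change of 0.89 ± 0.31 against ctrl center (edgeR, adjusted p = 0.421). The sheddase genes Adam10 and Adam17 were at 47.6 ± 16.1 and 12.5 ± 11.8 CPM in GFP+ and at 31.6 ± 24.1 and 3.72 ± 6.96 CPM in ctrl center.

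Efemp1 (chr11:28853204-28926743, plus strand), a fibulin of the extracellular matrix, had counts of 373, 659, 250, 0, 0 and 420 in GFP+ for mice 1, 2, 3, 4, 5 and 7. In ctrl periphery they were 14, 0, 330, 0 and 0 for mice 1, 2, 4, 5 and 7. In ctrl center they were 1, 0, 0, 0, 8 and 0 for mice 1, 2, 4, 5, 6 and 7. The gene was thus above 3 counts in 4 of 6, 2 of 5 and 1 of 6 libraries, and mouse 4, at 0 in GFP+, had its highest count outside GFP+ in ctrl periphery. Mean CPM was 12.8 ± 12.1 in GFP+ (n = 6), 3.33 ± 7.03 in ctrl periphery (n = 5) and 0.114 ± 0.240 in ctrl center (n = 6), with overlapping ranges.

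The filter on low counts removed Efemp1 in both comparisons with ctrl center. A two-sided exact permutation test of its CPM gave p = 0.0606 for GFP+ against ctrl center, where the smallest possible p is 0.00216, p = 0.221 for GFP+ against ctrl periphery and p = 0.364 between the ctrl groups. Leaving out single libraries moved the first exact p between 0.0303, without GFP+ mouse 4 or mouse 5, and 0.121. Fits that kept the gene in GFP+ against ctrl center did so through its GFP+ counts, and none passed the limit of 0.01. Their adjusted p was 0.0157 with DESeq2, 0.184 with edgeR without the filter and 0.335 with edgeR fitted to all 3 groups. No fitted fold is given, since most ctrl center libraries were at 0. Against ctrl periphery the gene was kept mostly through 4 of 6 GFP+ libraries, with 2 of 5 ctrl periphery libraries above 3 counts. In edgeR the log2 fold change there was 2.02 ± 1.97 (adjusted p = 1.00). It was 5.96 without the ctrl periphery library of mouse 4, where the highest count left in ctrl periphery was 14. Neither value is read as the size of a difference. The list for choroid stroma, fibroblasts and pericytes, which could bring this gene, summed to 164 to 558 CPM in GFP+, 149 to 247 in ctrl periphery and 2.77 to 327 in ctrl center. Acta2 made up 93.8% of that sum, and Col1a2, Pdgfra and Dpt, 3 of its 11 genes, were at or under 3 counts in every library. Whether these cells have a part in the Efemp1 counts was not tested.

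**Figure D4:**
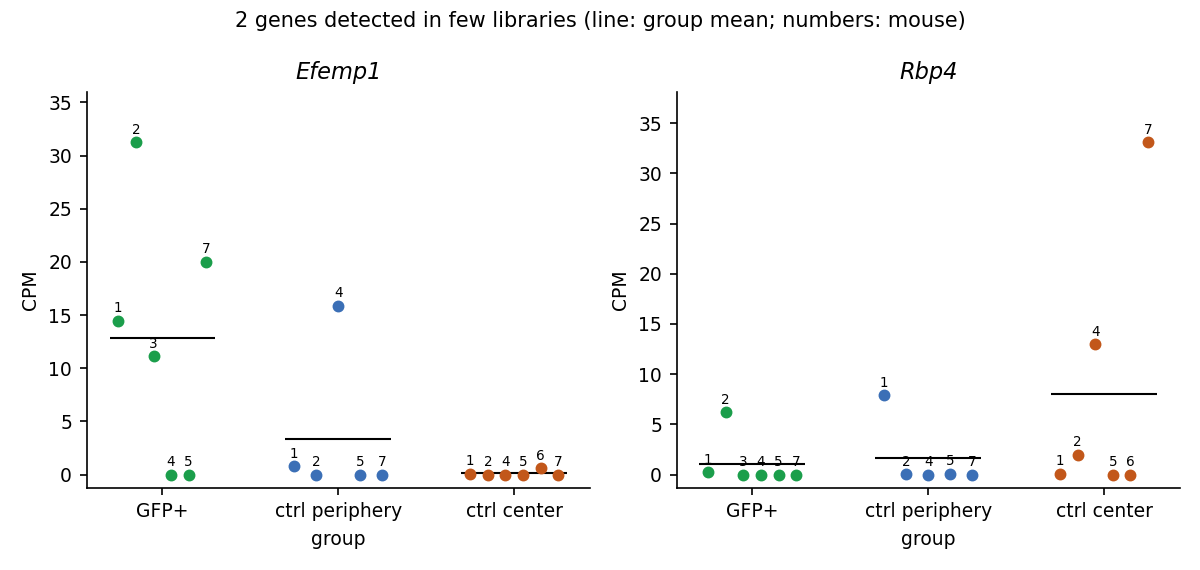
CPM of Efemp1 and Rbp4 in each library by group, with mouse numbers beside the points and a line at the group mean. Efemp1 is at 11.1 to 31.3 CPM in 4 of 6 GFP+ libraries and at 0.600 CPM or less in all ctrl center libraries, and the highest Rbp4 value is 33.1 CPM in the ctrl center library of mouse 7.

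Of 19 fibulin and elastic fibre genes, Efemp1 among them, 6, 8 and 7 were tested and 0 called. Efemp2, the nearest relative of Efemp1 on the list, was at 69.9 ± 32.6, 31.3 ± 17.8 and 54.7 ± 11.98 CPM, and was detected in every library. Fbln5, which assembles elastic fibres, was at 94.1 ± 65.5, 105 ± 52.8 and 218 ± 274 CPM. Fbn1, a microfibril gene, was at 68.4 ± 31.9, 81.4 ± 13.6 and 36.7 ± 33.1 CPM.

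Of the growth factor genes, Vegfa (chr17:46016993-46032369, minus strand) encodes the factor that maintains the choroidal capillaries. Its CPM ran from 161 to 399 in GFP+ with a median of 277. Ctrl periphery values were 310, 449, 476, 313 and 242 for mice 1, 2, 4, 5 and 7, and in ctrl center it ran from 225 to 523 with a median of 305. Within mice, Vegfa was highest in ctrl periphery in 4 of 5 mice and lowest in GFP+ in 3 of 5. The log2 fold changes were −0.38 ± 0.27 for GFP+ against ctrl center, −0.39 ± 0.25 for GFP+ against ctrl periphery and 0.03 ± 0.29 between the ctrl groups (edgeR, adjusted p = 1.00 in each). The first was 0.13 when scaled by total counts alone. Of 13 genes of the VEGF family and its regulators, 12 of them in the table, 6, 8 and 8 were tested and 0 called. Epas1, a hypoxia-responsive factor, was at 148 ± 54.5 CPM in GFP+ and 259 ± 89.7 in ctrl periphery, a log2 fold change of −0.80 ± 0.30 (edgeR, adjusted p = 0.708). Hif1a and Vegfb were at 148 ± 45.2 and 77.1 ± 18.3 CPM in GFP+.

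Igfbp2 (chr1:72824503-72852474, plus strand), which binds insulin-like growth factors, had the widest ranges of the 8 genes found in every library in GFP+ and ctrl periphery, 5.20-fold and 26.4-fold. Its CPM ran from 24.0 to 125 in GFP+ with a median of 41.2. The ctrl periphery libraries gave 37.9, 51.5, 33.9, 2.70 and 71.3 for mice 1, 2, 4, 5 and 7, and in ctrl center it ran from 22.1 to 138 with a median of 69.8. The lowest value came from 34 counts in the ctrl periphery library of mouse 5. The log2 fold changes were −0.31 ± 0.56, 0.62 ± 0.62 and −0.89 ± 0.71 in the 3 comparisons (edgeR, adjusted p = 1.00 in each), and the first was 0.27 when scaled by total counts alone. Leaving out single libraries moved them from −0.69 (without GFP+ mouse 2) to −0.06 (without ctrl center mouse 4), from 0.19 (without GFP+ mouse 2) to 0.93 (without ctrl periphery mouse 7), and from −1.22 (without ctrl periphery mouse 7) to −0.59 (without ctrl periphery mouse 5). Of the IGF axis, 8 of 17 genes were tested in each comparison and 0 called. Igfbp7 was at 239 ± 91.5, 264 ± 79.0 and 321 ± 144 CPM in the 3 groups, Igfbp5 at 61.2 ± 51.7, 80.8 ± 42.0 and 49.6 ± 41.8 CPM, and the receptor gene Igf1r was at 116 ± 47.2, 160 ± 77.4 and 124 ± 46.9 CPM.

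A last list held 36 other secreted products of the RPE, of which 34 were in the table, 20, 21 and 20 were tested and 0 called. Trf was at 34876 ± 17580, 25937 ± 17461 and 18046 ± 10748 CPM. Its log2 fold change in GFP+ against ctrl center was 0.90 ± 0.39 (edgeR, adjusted p = 0.726). The list as a whole leaned the other way there, with 8 of 20 fitted values above 0 and a median of −0.49. At an unadjusted p under 0.05 were 2 of its genes higher and 2 lower. It had 9 of 21 values above 0 against ctrl periphery (median −0.12) and 12 of 20 between the ctrl groups (median 0.10). The remaining lists had, in GFP+ against ctrl center, 5 of 9 values above 0 for retinol and thyroid hormone transport (median 0.20) and 3 of 5 for prostaglandin D (0.47). These were 4 of 7 for clusterin and chaperones (0.04), 3 of 6 for fibulins and elastic fibres (−0.04) and 3 of 8 for the IGF axis (−0.16). The VEGF family had 4 of 6 (0.24) and lysophospholipid signalling 2 of 6 (−0.01). Over the 10 lists, 172 genes in all and the 10 described here among them, 83, 94 and 90 genes were tested and 0 called. Of these, 15.7%, 11.7% and 3.33% had an unadjusted p under 0.05, beside 5.8%, 5.58% and 2.7% of all tested genes. Since the lists were chosen with earlier results of these data known, these shares are no test of the lists. The 10 genes held 62.9% ± 8.66, 66.6% ± 7.45 and 68.8% ± 8.55 of the counts of all listed genes in GFP+, ctrl periphery and ctrl center.

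Ratios of 2 genes inside a library do not depend on library scaling, and were taken for all 28 pairs of the 8 genes that had 10 counts or more throughout, a step added after the levels had been seen. In GFP+ against ctrl center 2 of the 28 pairs (7.14%) did not overlap, where 3.31% of 735078 pairs of 1213 well-counted genes did not. Both of these pairs held Cst3, so they are not independent. The 1213 genes also needed a mean of at least 100 CPM, which Igfbp2, at group means of 39.5 to 70.5 CPM, did not reach. In GFP+ against ctrl periphery 0 of 28 were separate, where 2.62% of pairs were, and between the ctrl groups 0 of 28, where 0.746% were. The ratio of Ttr to Cst3 ran from 2.06 to 2.74 in GFP+, with a median of 2.16. It was 1.81, 1.45, 2.45, 2.25 and 1.91 in ctrl periphery for mice 1, 2, 4, 5 and 7, and ran from 1.20 to 1.97 in ctrl center, with a median of 1.70. Every GFP+ library therefore held more Ttr per Cst3 count than every ctrl center library, while ctrl periphery spanned both.

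The ratio of Cst3 to Timp3 ran from 2.32 to 4.02 in GFP+, with a median of 2.95. It was 4.58, 4.52, 2.78, 2.67 and 4.02 in ctrl periphery, and ran from 4.24 to 5.28 in ctrl center, with a median of 4.93. Ctrl center libraries thus all had less Timp3 per Cst3 count than GFP+ libraries, mouse 5 and its high mitochondrial share included. These are descriptions of pairs picked from 28, with no test. With single libraries left out, between 2 and 7 pairs were separate in GFP+ against ctrl center, the most without ctrl center mouse 7, where 4.95% of the 735078 pairs were separate. The counts ran from 0 to 3 in GFP+ against ctrl periphery, the most without ctrl periphery mouse 7 (5.42% of all pairs), and from 0 to 2 between the ctrl groups, the most without ctrl center mouse 7 (1.41% of all pairs). Across all 17 libraries the ratio of Ptgds to Cst3 had the smallest SD of the 28, 0.26 on the log2 scale, while the ratio of Ttr to Timp3 had the narrowest range, 2.14-fold beside 2.22-fold. The ratio of Ptgds to Ttr was above 1 in 4 of 6 GFP+ libraries and in all 11 ctrl libraries.

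**Figure D5:**
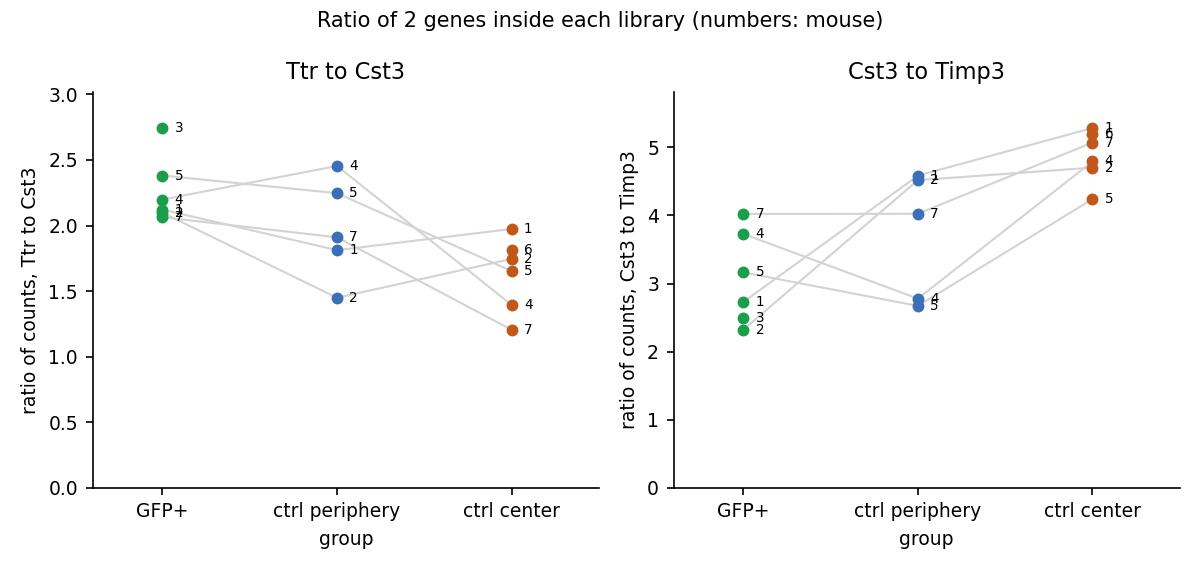
Ratio of Ttr to Cst3 counts and of Cst3 to Timp3 counts in each library by group, with mouse numbers; grey lines join libraries of the same mouse. GFP+ and ctrl center do not overlap in either panel (2.06 to 2.74 against 1.20 to 1.97, and 2.32 to 4.02 against 4.24 to 5.28), and ctrl periphery lies across both.

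Levels were also compared across the 17 libraries as Pearson correlations of log2(CPM + 1), which are given as descriptions since libraries share animals and groups. Among the 10 genes, the pair most alike was Ptgds and Cst3 (r = 0.81), followed by Ttr and Timp3 (r = 0.76), and the least alike was Ttr and Rbp4 (r = −0.50). Without ctrl center mouse 5 these were 0.80, 0.73 and −0.63. Among 7036 other genes with a mean of at least 10 CPM, the gene most like Ptgds was Apoe (r = 0.84), that most like Cst3 was the visual cycle gene Rdh5 (r = 0.87), and that most like Ttr was Tsen34 (r = 0.90). Clu was most like Tmem98 (r = 0.92), Enpp2 most like Nup88 (r = 0.94), Timp3 most like Plscr2 (r = 0.90) and Vegfa most like Romo1 (r = 0.86). Igfbp2 was most like Timm8a1 (r = 0.89), Efemp1 most like Tubb4a (r = 0.74) and Rbp4 most like Senp6 (r = 0.81). Efemp1 and Rbp4 had many libraries at 0, and the lowest values of Nup88, Plscr2 and Tubb4a were 0 CPM. Each r is the highest over all genes compared, so a high value comes with the choice.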

How the data were processed

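RNA of hand-picked RPE pools was amplified by SMART-Seq and sequenced. The authors deposited 1 table of estimated counts, whole numbers per gene symbol. The submitters' processing notes name fastp, Salmon and GRCm38.p6, and the step from transcripts to genes, strand use and versions are not given in the sources used here. The study's methods name DESeq2 and state both sexes and another number of cells per pool than the labels. All 17 columns matched a label and were grouped by it.

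The members and gene lists were chosen with earlier results of these data known. Genes were tested with edgeR 4.0.16 and limma 3.58.1 in R 4.3.3 (default filterByExpr, TMM, quasi-likelihood test), separately for each pair of groups. Calls needed a log2 fold change beyond 1 in size at an adjusted p under 0.01. CPM used TMM over all 17 libraries. Rbp4 and Efemp1, mostly removed by the filter, were tested by exact permutation of CPM. The text names the 10 genes, the 3 other genes of highest mean CPM and any called gene of each list, and the gene most correlated with each of the 10; genes named for an unadjusted p were chosen after their values were seen. Some genes that this rule names are not reported here. Gene lengths and positions came from GRCm38, GENCODE M21, which held 21853 of the symbols (98.2%). Figures used Python 3.11.15 and matplotlib 3.10.9. The fit was tested on simulated data.

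Animal numbers in the labels pair libraries of 5 mice. Correlations of their deviations from the group means were −0.0234 to 0.0977 over 15 pairs, 0 of them above 0.1, and the pairing rests on the animal. No library repeated another: of 136 pairs r reached at most 0.924, and chi-square per gene was at least 69.2. Replicates are pools of cells, so p-values measure the spread between libraries. No molecular identifiers are described, so floors of 3 counts (0.134 to 0.303 CPM on total counts without TMM scaling) cover counting error only.

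Alternatives were DESeq2 1.42.0, median-of-ratios and total-count scaling, mitochondrial genes left out, no filter, a fit of all 3 groups, a replicate block by mouse, a covariate for runs of neighboring animal numbers, an adjusted p under 0.05 without fold limit, the longest transcript, and each library left out. Ratios of gene pairs were added after seeing the data.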

Additional observations from a re-analysis of the deposited data

Results flagged for a closer look

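Within groups of 5 or 6 libraries, the 10 genes and their summed share gave 33 sets of values, of which 5 had 1 library far from the others. Chance flags about 1 in 20 sets of normally distributed values, and 4 of the 5 are Rbp4 or Efemp1, whose other libraries are mostly at or near 0, so that this rate does not apply to them. Rbp4 was at 6.22 CPM (131 counts) in GFP+ mouse 2, where the next library was at 0.233 CPM. In ctrl periphery Rbp4 was at 7.91 CPM (142 counts) in mouse 1, and the next was at 0.0794 CPM. Efemp1 was at 15.9 CPM (330 counts) in ctrl periphery mouse 4, beside 0.780 CPM in the next. Efemp1 in ctrl center was at 0.600 CPM (8 counts) in mouse 6, beside 0.0841 CPM. Enpp2 was at 4805 CPM (48610 counts) in ctrl periphery mouse 7, where the next library was at 3393 CPM.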

How the results depend on the processing

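Of 483 fits of the genes under alternatives, 459 kept the direction reported, 24 had the opposite one (14 with a library left out, 10 others) and 0 passed the call limits. The numbers of genes called in GFP+ against ctrl center, GFP+ against ctrl periphery and between the ctrl groups were 202, 67 and 29 with DESeq2, and 56, 0 and 0 with the replicate block by mouse. They were 1 and 1 for the first 2 comparisons with the run of animal numbers as covariate, and 5 and 0 with all 3 groups fitted. An adjusted p under 0.05 without a fold limit gave 8 and 5. With single libraries left out they were 1 to 3, 0 to 5 and 0 to 0. Scaled by total counts alone, log2 fold changes turned in GFP+ against ctrl center for Ptgds (0.16), Cst3 (0.30), Vegfa (0.13) and Igfbp2 (0.27), and between the ctrl groups for Ptgds (0.16) and Cst3 (0.15). In GFP+ against ctrl center that scaling also raised Ttr to 0.74, Enpp2 to 0.88, Clu to 1.29 and Timp3 to 1.02, none past the call limits, where the median of all genes was 0.48. Cst3 in GFP+ against ctrl periphery was −0.0010 with DESeq2, −0.0070 with median-of-ratios scaling and −0.010 with all groups fitted. The replicate block gave 0.10 for Ptgds between the ctrl groups, where the median of all genes was 0.49, and changed no call of the 10 genes. Efemp1 in GFP+ against ctrl periphery was 5.83 with the block, a value that rests on few ctrl periphery counts. Left-out libraries moved Cst3 in GFP+ against ctrl periphery from −0.051 to 0.061, and the Rbp4 difference there from −1.56 to 1.04 CPM. Between the ctrl groups they moved Ttr from −0.031 to 0.23, Ptgds from −0.27 to 0.0033, Enpp2 from −0.034 to 0.84, Clu from −0.13 to 0.41 and Vegfa from −0.080 to 0.18. The summed share was 8.08% in GFP+ and 7.30% in ctrl periphery without Ttr, and 13.0% in ctrl periphery without mitochondrial genes. With libraries left out it was 11.7% to 12.6%, 9.87% to 10.997% and 7.91% to 9.71% in GFP+, ctrl periphery and ctrl center. The causes were not tested.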
